A study of Rattus norvegicus with 28 samples.

Results

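Genes of the extracellular matrix and of the mesenchymal cytoskeleton were examined in cultured rat hepatocytes. The set held 10 genes: Ccn2 (older name Ctgf), Emp1, Vim, Tagln, Acta2, Lox, Col1a1, Col1a2, Col3a1 and Dcn. They were found by gene symbol or accession among the probes of a rat whole-genome array, and 13 of its 41012 probes, which bear 37806 gene names, stood for 9 of the 10 genes. No probe matched Acta2, which was not analysed here. Each probe was kept apart.

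The hepatocytes came from 2 adult female Sprague-Dawley rats, called A and B. They were plated on Matrigel, a gel of basement membrane proteins, and kept for 48 h with 0.1 uM dexamethasone, a synthetic glucocorticoid, before 24 h of treatment. The treated cells received TCDD (1 or 0.01 nM), a chlorinated dioxin, TCDF (10 or 0.1 nM), a chlorinated dibenzofuran, or PeCDF (2 or 0.02 nM), a dibenzofuran that carries more chlorine than TCDF. The compounds were given in 0.1% DMSO, further cells stayed untreated with no DMSO, and the cells that all were set against had 0.1% DMSO alone. The RNA of 3 dishes of an animal was pooled, labelled and hybridised together with DMSO RNA of the same animal, with the dyes exchanged on a second array, so each of the 7 groups had 4 arrays from 2 animals. No dose of one compound was matched by the same dose of another, and values of the compounds are therefore given side by side without a comparison between them. All values rest on n = 2 animals, and every error is the standard error of a log2 ratio to DMSO from a limma fit unless another is named. That fit took the 7 groups together, so the error of a probe rests on a spread shared by the groups. It does not measure the spread between the 2 animals of a given group. Whether 1 DMSO preparation served all arrays of an animal is not stated.

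The compounds are ligands of the aryl hydrocarbon receptor, a transcription factor that moves into the nucleus on binding a ligand and pairs with ARNT on DNA. Hepatocytes in culture tend to lose their epithelial specialisation and to take on mesenchymal traits such as vimentin filaments, and in liver fibrosis the matrix is made largely by stellate cells and fibroblasts. Ccn2 encodes a secreted matricellular protein that is a well-known target of TGF-beta and of the YAP and TEAD transcription factors. Emp1 encodes a membrane protein of the PMP22 family, Vim an intermediate filament, and Tagln (transgelin, SM22) an actin-binding protein of smooth muscle and fibroblasts. Lox encodes lysyl oxidase, which crosslinks collagen and elastin. Col1a1, Col1a2 and Col3a1 encode chains of the fibrillar collagens, and Dcn encodes decorin, a small proteoglycan that binds collagen fibrils.

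The promoters of the 3 genes with the largest TCDD differences among those with an entry in the sequence table are shown, as RefSeq gives them for the GRCr8 build. Each stretch holds the 250 bases before the start that the sequence table uses for the gene, written along the gene's own strand. For Vim and Ccn2 that is the first base of the RefSeq gene span, and for Emp1 it lies 12693 bases inside the span, which begins at base 169931537 of chromosome 4. Capitals mark GGAATG or its other-strand form CATTCC, the core letters that TEAD factors are known to bind. The Vim window lies at chr17:81577011-81577260 on the plus strand, the Ccn2 window at chr1:22624615-22624864 on the minus strand, and the Emp1 window at chr4:169943980-169944229 on the plus strand.
Ccn2: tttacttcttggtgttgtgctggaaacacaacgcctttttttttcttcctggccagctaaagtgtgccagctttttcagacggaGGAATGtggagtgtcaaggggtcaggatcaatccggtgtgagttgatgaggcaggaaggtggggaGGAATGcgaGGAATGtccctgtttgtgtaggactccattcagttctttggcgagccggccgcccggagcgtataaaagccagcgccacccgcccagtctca
Emp1: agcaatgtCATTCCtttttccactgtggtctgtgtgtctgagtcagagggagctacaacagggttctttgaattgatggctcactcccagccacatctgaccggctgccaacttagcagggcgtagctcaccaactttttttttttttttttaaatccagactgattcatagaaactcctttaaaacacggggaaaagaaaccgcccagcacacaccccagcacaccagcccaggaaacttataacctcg
Vim: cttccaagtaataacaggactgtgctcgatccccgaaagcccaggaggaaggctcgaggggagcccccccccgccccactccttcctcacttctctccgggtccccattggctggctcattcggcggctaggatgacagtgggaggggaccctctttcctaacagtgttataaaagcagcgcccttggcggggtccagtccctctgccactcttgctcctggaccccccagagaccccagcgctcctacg

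The Ccn2 window held GGAATG 3 times on its own strand, at bases -166 to -161, -101 to -96 and -92 to -87 counted back from the table's start. The Emp1 window held it once, on the other strand at bases -242 to -237 from the start inside the gene span, and the Vim window not at all. Of all 27457 promoters of the same length in the table, 11.8% held the letters on either strand. The core of the dioxin response element, GCGTG or CACGC on the other strand, was in none of the 5 windows of the set (Vim, Ccn2, Emp1, Col1a2 and Acta2), and 27.2% of all promoters held it. These matches describe the letters in those windows and nothing about binding.

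With TCDD 1 nM, 7 of the 13 probes were lower than in DMSO at an adjusted p under 0.05, and they stood for 5 genes, Emp1, Ccn2, Lox, Vim and Tagln. None was higher. Of all 37822 probes tested with TCDD 1 nM, 10.6% were called and 6.05% were called lower. The median log2 ratio of the 13 probes was -0.39, that of all probes -0.00. With PeCDF 2 nM 6 of the 13 probes were called, 4 lower (Ccn2, Emp1, Lox and Col1a1, 1 probe each) and 2 higher (Dcn and Col3a1), where 4.22% of all probes were called, 2.53% lower and 1.69% higher. TCDF 10 nM had 2 lower probes of 13, 1 of Ccn2 and 1 of Emp1, where 2.09% of all probes were called and 1.11% were called lower. With the animal as a replicate block that count was 4, as Vim and 1 Lox probe joined, where 2.57% of all probes were called. Without animal B the TCDD count was 3, where 4.5% of all probes were called. Without animal A and without animal B the PeCDF count was 1, where 0.341% and 1.69% of all probes were called. Median centring in place of loess left 3 calls with TCDD 1 nM (Ccn2 and both Emp1 probes) and 0 with the furans, and calls over the whole array fell as well, to 0.632% with TCDD 1 nM, 0.0397% with TCDF 10 nM and 0.0132% with PeCDF 2 nM. Median log2 ratios of the 13 probes were -0.14 with TCDF 10 nM and -0.15 with PeCDF 2 nM, where those of all probes were 0.00 and -0.00.

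**Figure D1:**
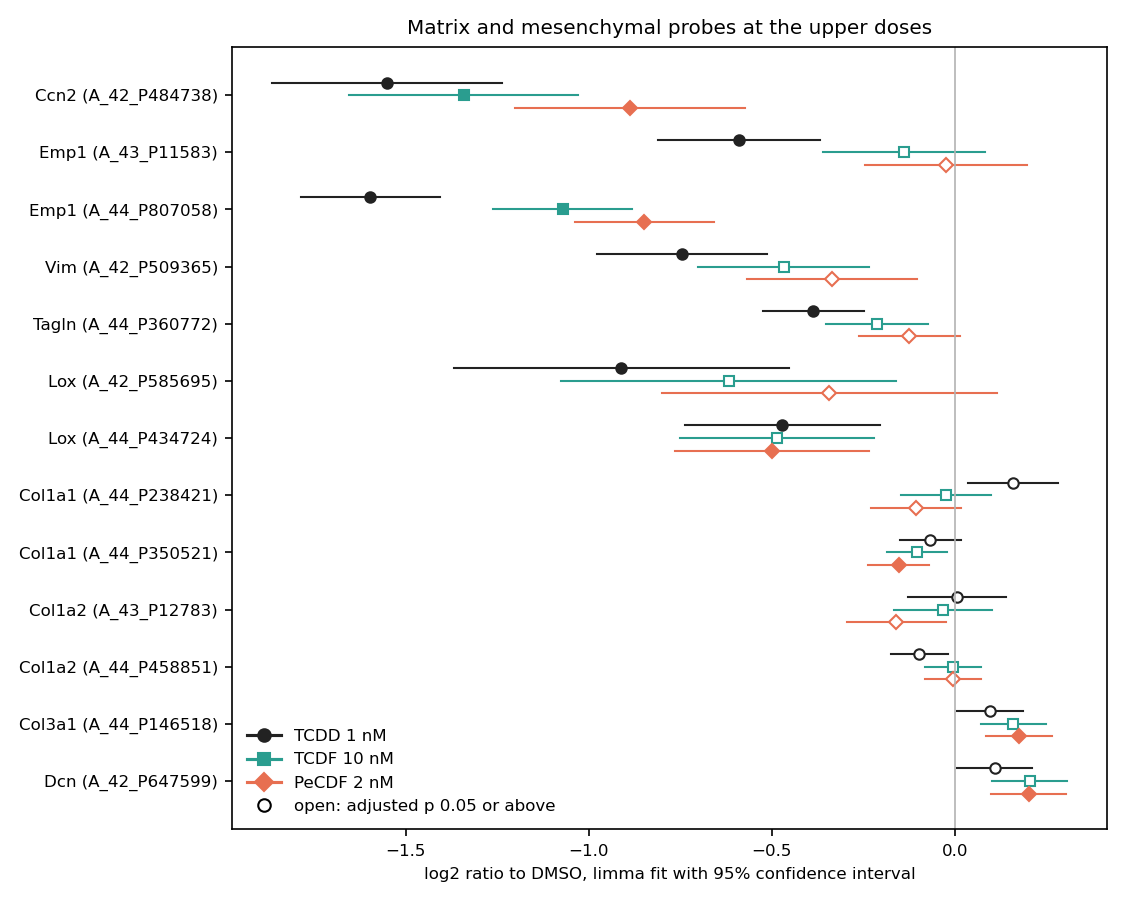
Log2 ratio to DMSO (x axis) of the 13 probes (y axis) at the upper dose of each compound, as the mean of 2 animals. The 95% confidence interval is from the limma fit of all groups together and uses a spread shared by the groups. Filled symbols have an adjusted p under 0.05, and Ccn2 and the Emp1 probe A_44_P807058 are the ones filled for all 3 compounds.

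Ccn2 was lower with each of the compounds at its upper dose. The 4 arrays of TCDD 1 nM gave normalized log2 levels of 8.87 and 8.93 (animal A) and 10.73 and 10.70 (animal B) in the TCDD channel, against 10.76 and 10.74 (A) and 11.99 and 11.95 (B) in the DMSO channel. The log2 ratios were -1.89 and -1.81 in animal A and -1.26 and -1.25 in animal B, so each animal repeated itself across dyes and A had the larger difference. The fit gave -1.55 ± 0.14, or 2.93-fold lower with TCDD 1 nM than in DMSO (adjusted p = 0.000122). With TCDF 10 nM the arrays gave -1.34 and -1.13 in A and -1.46 and -1.44 in B. Ccn2 was thus 2.53-fold lower with TCDF 10 nM (-1.34 ± 0.14, adjusted p = 0.00147). PeCDF 2 nM gave -0.85 and -0.83 in A and -0.97 and -0.90 in B. This was 1.85-fold lower (-0.89 ± 0.14, adjusted p = 0.00901), a call that did not hold without animal A or without animal B.

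At the lower doses the Ccn2 ratio was also below 0 on every array, without passing the test. TCDD 0.01 nM gave -0.70 and -0.68 in animal A and -0.14 and -0.06 in animal B, and the 2 animals did not overlap. TCDF 0.1 nM gave -0.50 and -0.52 in A and -0.62 and -0.58 in B, with a fitted -0.56 ± 0.14 (adjusted p = 0.355). PeCDF 0.02 nM gave -0.38 to -0.21 over its 4 arrays. Untreated cells, which lacked DMSO, also lay below their DMSO partners, with -0.21 and -0.18 in A and -0.14 and -0.09 in B (fitted -0.15 ± 0.14, adjusted p = 0.823). The step between doses was itself called for TCDD alone: Ccn2 was 2.23-fold lower at 1 nM than at 0.01 nM (-1.16 ± 0.20, adjusted p = 0.0117), a call lost when the groups of its session were fitted alone. The steps of the furans were -0.79 ± 0.20 for TCDF (adjusted p = 0.478) and -0.59 ± 0.20 for PeCDF (adjusted p = 0.663).

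Emp1 was read by a pair of probes that differed. On probe A_44_P807058 TCDD 1 nM gave log2 levels of 10.94 and 10.90 (A) and 10.33 and 10.06 (B) in the TCDD channel, against 12.38 and 12.36 (A) and 12.07 and 11.79 (B) in the DMSO channel. The ratios were -1.45 and -1.46 in A and -1.74 and -1.74 in B, all 4 far below 0. Emp1 was 3.03-fold lower with TCDD 1 nM on this probe (-1.60 ± 0.09, adjusted p = 5.13e-06). For TCDF 10 nM the ratios were -1.18 and -1.03 in A and -1.09 and -0.99 in B, a 2.10-fold difference (-1.07 ± 0.09, adjusted p = 0.000281). With PeCDF 2 nM they were -0.81 and -0.73 in A and -0.98 and -0.88 in B, a 1.80-fold difference (-0.85 ± 0.09, adjusted p = 0.00105).

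This Emp1 probe was also the one whose dose step was called for each compound. It was 3.40-fold lower at TCDD 1 nM than at 0.01 nM (-1.76 ± 0.12, adjusted p = 9.28e-05). The steps were -0.92 ± 0.12 for TCDF (adjusted p = 0.0305) and -0.97 ± 0.12 for PeCDF (adjusted p = 0.0211), and neither furan step was called when 1 animal was left out. At the lower doses its ratios lay near 0: -0.00 to 0.34 over the arrays of TCDD 0.01 nM, -0.26 to -0.04 with TCDF 0.1 nM and 0.03 to 0.20 with PeCDF 0.02 nM. Untreated cells had 0.32 and 0.38 in A and 0.06 and 0.14 in B, above DMSO on all 4 arrays without passing the test (0.22 ± 0.09, adjusted p = 0.382). This is the opposite side of 0 from Ccn2 in the same untreated cells.

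The other Emp1 probe, A_43_P11583, was called with TCDD 1 nM and with no other group. Its TCDD 1 nM ratios were -0.49 and -0.60 in A and -0.63 and -0.64 in B (-0.59 ± 0.10, adjusted p = 0.004), a call lost without animal B. They ran from -0.37 to 0.07 with TCDF 10 nM and with PeCDF 2 nM from -0.10 to 0.10, so both furans included arrays on either side of 0. The fitted ratios were -0.14 ± 0.10 and -0.02 ± 0.10 for these furans. The probes thus differed by 1.01, 0.93 and 0.82 on the log2 scale with TCDD 1 nM, TCDF 10 nM and PeCDF 2 nM. The background-subtracted DMSO signal of A_43_P11583 was 48.0 to 158 units, where the correction adds an offset of 50 units to every spot. With an offset of 1 its TCDD 1 nM ratio was -1.18, with Agilent's own log ratio -1.06 and with no background correction -0.18. Its furan ratios were -0.21 with TCDF 10 nM and -0.03 with PeCDF 2 nM at an offset of 1. Whether the offset had a part in the difference between the probes was not tested. The bases that each probe reads were not used here, so no transcript is assigned to either.

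**Figure D2:**
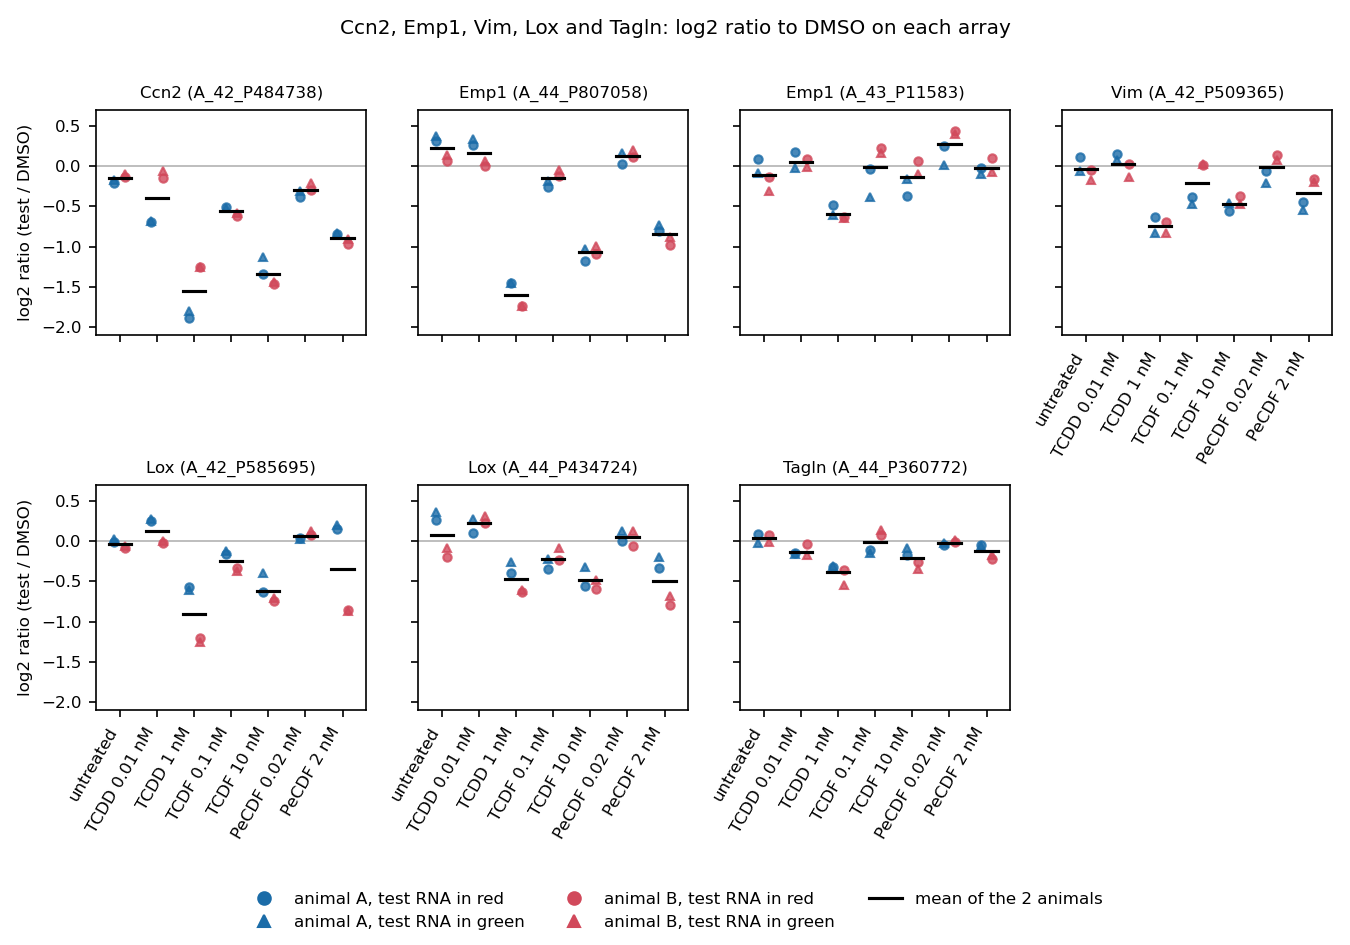
Log2 ratio to DMSO (y axis) on each of the 4 arrays of each group (x axis) for the probes of Ccn2, Emp1, Vim, Lox and Tagln. Colours mark the animal, symbols the dye of the test RNA and bars the mean of the 2 animals. Ccn2 lies below 0 on every array, and the Lox probe A_42_P585695 at PeCDF 2 nM has animal A at 0.16 and 0.20 and animal B at -0.86 and -0.87.

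Vim and Tagln, the cytoskeletal genes, were lower with TCDD 1 nM. Vim had -0.64 and -0.83 in animal A and -0.69 and -0.83 in animal B; the animals overlapped, and Vim was 1.68-fold lower (-0.75 ± 0.10, adjusted p = 0.00145). TCDF 10 nM put all 4 arrays between -0.56 and -0.37, and the fitted -0.47 ± 0.10 missed the threshold (adjusted p = 0.0513). With the animal as a replicate block its adjusted p was 0.045. PeCDF 2 nM gave -0.45 and -0.54 in A and -0.16 and -0.20 in B (-0.34 ± 0.10, adjusted p = 0.115). TCDF 0.1 nM split the animals, with -0.39 and -0.47 in A and 0.02 and 0.02 in B. The remaining groups lay between -0.21 and 0.15. Between TCDD 1 nM and 0.01 nM Vim differed by -0.78 ± 0.15 (adjusted p = 0.0187), a call that did not hold without animal A or without animal B.

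Tagln had -0.33 and -0.31 in animal A and -0.36 and -0.55 in animal B with TCDD 1 nM, and was 1.31-fold lower (-0.39 ± 0.06, adjusted p = 0.00306). Without animal B that call was lost. Its DMSO signal was 54.6 to 186 units above background, and the TCDD 1 nM ratio was -0.66 with an offset of 1 and -0.13 with no background correction. The Tagln arrays lay between -0.35 and -0.08 with TCDF 10 nM (-0.21 ± 0.06, adjusted p = 0.138), and with PeCDF 2 nM between -0.22 and -0.05 (-0.13 ± 0.06, adjusted p = 0.35).

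Lox was lower with TCDD 1 nM on each of its probes. Probe A_42_P585695 gave -0.57 and -0.60 in animal A and -1.21 and -1.26 in animal B, all below 0 with B the lower (-0.91 ± 0.21, 1.88-fold lower, adjusted p = 0.0185). Probe A_44_P434724 gave -0.39 and -0.26 in A and -0.63 and -0.61 in B (-0.47 ± 0.12, 1.39-fold lower, adjusted p = 0.0311). Between TCDD 1 nM and 0.01 nM the Lox probes differed by -1.04 ± 0.29 (adjusted p = 0.0904) and -0.70 ± 0.17 (adjusted p = 0.0513), which with the animal as a replicate block became adjusted p = 0.034 and 0.0315. Animal B had the larger Lox difference with TCDD 1 nM on both, and neither call held without animal B. With TCDF 10 nM the arrays lay between -0.74 and -0.40 on the first probe (-0.62 ± 0.21, adjusted p = 0.205) and between -0.59 and -0.32 on the second (-0.49 ± 0.12, adjusted p = 0.0754, and 0.0457 with the animal as a replicate block).

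With PeCDF 2 nM the Lox probes came apart in animal A. A_42_P585695 gave 0.16 and 0.20 in A and -0.86 and -0.87 in B, opposite sides of 0 with little spread between dyes, and its fitted -0.34 ± 0.21 was not called (adjusted p = 0.463). A_44_P434724 gave -0.33 and -0.19 in A and -0.79 and -0.68 in B, and was called (-0.50 ± 0.12, adjusted p = 0.0467). That call was lost under 8 of 13 alternatives, among them Agilent's log ratio, no background correction, an offset of 1 and its session fitted alone. A_42_P585695 also stood apart in the DMSO channel. Its normalized DMSO level was 9.69 to 10.18 over the 12 arrays of untreated and TCDD groups, read in the first of 2 sessions of image reading, and 8.50 to 9.17 over the 16 arrays of TCDF and PeCDF, read in the second. The gap of 0.95 (1.93-fold) was matched or passed by 23 of 37824 probes, 0.0608%. The other 12 probes of the set, A_44_P434724 among them, overlapped between sessions, and 0.415% of all probes lay wholly higher in the first session. The DMSO channel held RNA of cells given no compound. In the ratios session and compound cannot be told apart, as TCDD and the furans were read in different sessions.

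The ratios of the fibrillar collagens and Dcn were small. Some of these probes were dim beside the offset of 50 units. The DMSO signal above background was 53.7 to 155 units for Col1a1 A_44_P238421, 94.5 to 284 for Col1a2 A_44_P458851 and 97.3 to 252 for Dcn. It was 145 to 383 for Col1a1 A_44_P350521, 358 to 1021 for Col1a2 A_43_P12783 and 269 to 670 for Col3a1. Whether the offset limited these ratios was not tested. Both Col1a1 probes and both Col1a2 probes stayed between -0.34 and 0.29 on all 28 arrays. Col1a1 probe A_44_P350521 gave -0.08 and -0.26 in A and -0.14 and -0.15 in B with PeCDF 2 nM, a 1.11-fold decrease (-0.15 ± 0.04, adjusted p = 0.0477). The other Col1a1 probe, A_44_P238421, had -0.11 ± 0.06 there (adjusted p = 0.38), and with TCDD 1 nM the 2 probes had opposite signs (0.16 ± 0.06 and -0.07 ± 0.04, neither called). Col1a2 was called in no group on either probe. At the upper doses its fitted ratios ran from -0.16 to 0.00 on A_43_P12783 and from -0.10 to -0.01 on A_44_P458851.

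Col3a1 and Dcn were the probes called as higher, each with PeCDF 2 nM. Col3a1 had 0.20 and 0.10 in animal A and 0.24 and 0.15 in animal B, and was 1.13-fold higher (0.17 ± 0.04, adjusted p = 0.0401). Dcn had 0.21 and 0.30 in A and 0.17 and 0.12 in B, and was 1.15-fold higher (0.20 ± 0.05, adjusted p = 0.04). With TCDF 10 nM both were above 0 on all 4 arrays, with 0.16 ± 0.04 for Col3a1 (adjusted p = 0.0829) and 0.20 ± 0.05 for Dcn (adjusted p = 0.0546). Dcn was as far from DMSO at TCDF 0.1 nM, with 0.17 to 0.28 over the arrays (0.24 ± 0.05, adjusted p = 0.291). At PeCDF 0.02 nM both genes were also above 0 on all 4 arrays, without a call. The arrays there gave 0.04 to 0.25 for Col3a1 and 0.12 to 0.23 for Dcn. The calls on Col3a1, Dcn and Col1a1 with PeCDF 2 nM were among those lost with an offset of 1, with Agilent's log ratio and without either animal. They were also lost when the groups of their session were fitted alone. In the first session Dcn had -0.08 to 0.11 in untreated cells, -0.03 to 0.05 with TCDD 0.01 nM and 0.04 to 0.18 with TCDD 1 nM. Col3a1 had -0.30 to 0.05, -0.04 to 0.14 and -0.06 to 0.19 in these groups. All furan arrays were read in the second session, so session and compound cannot be told apart here either.

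**Figure D3:**
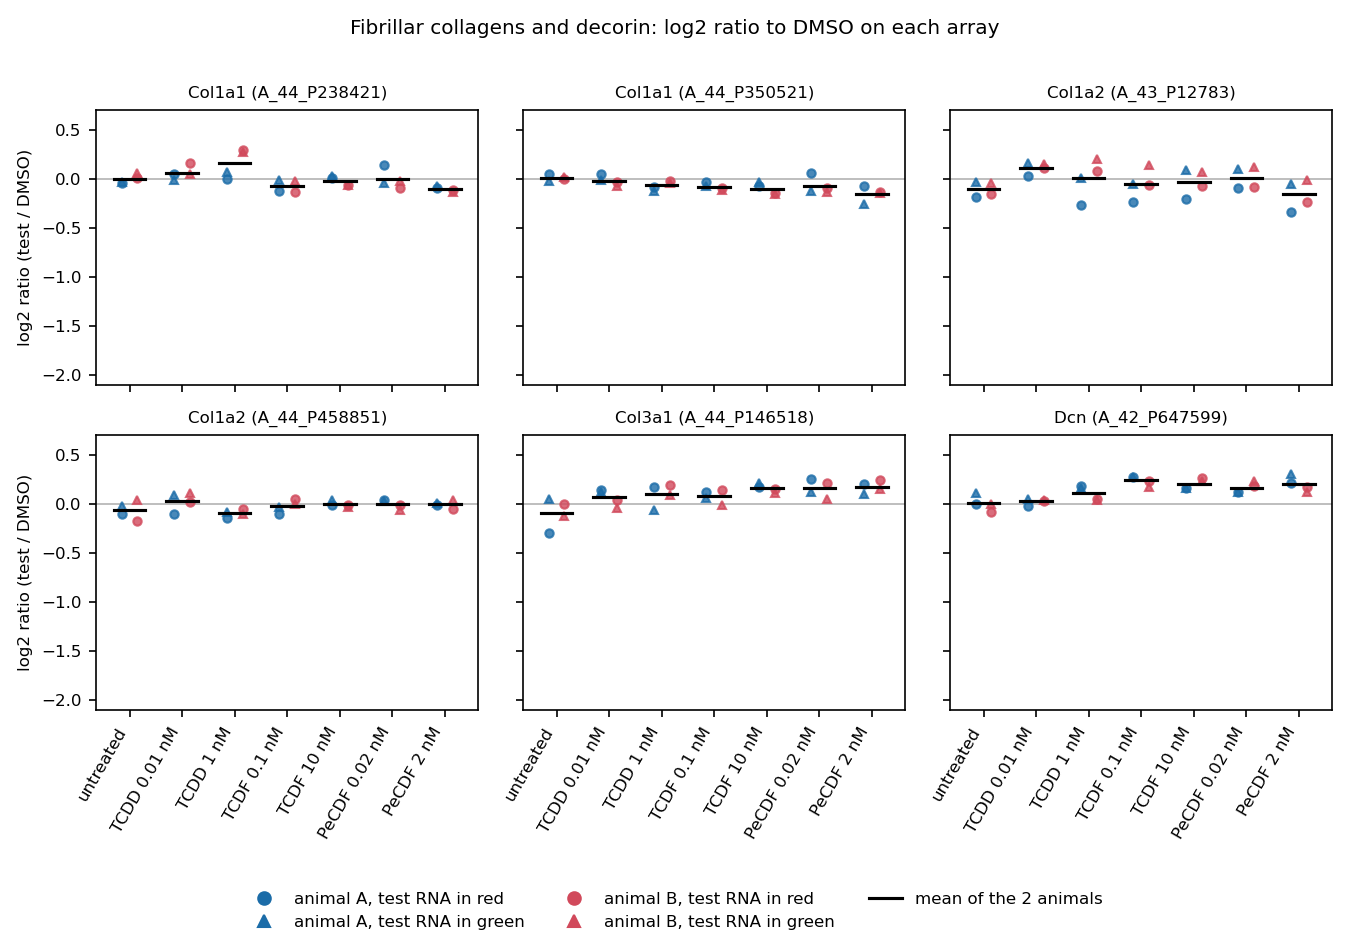
Log2 ratio to DMSO (y axis) on each of the 4 arrays of each group (x axis) for the collagen probes and Dcn, drawn on the same scale as the plot of Ccn2 and Emp1. Colours mark the animal, symbols the dye and bars the mean of the 2 animals. No array of the Col1a1 and Col1a2 probes leaves the range of -0.34 to 0.29.

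At the lower doses and in untreated cells limma called none of the 13 probes. Of all probes, 0.442% were called with TCDD 0.01 nM, 0% with TCDF 0.1 nM, 0% with PeCDF 0.02 nM and 0.0423% in untreated cells. At an unadjusted limma p under 0.05 the member probes numbered 1, 2, 3 and 2 of 13 in these groups, in the same order. The probes of the whole array numbered 3875, 2851, 2851 and 3960, or 10.2%, 7.54%, 7.54% and 10.5% of those tested. An array-level limma fit with a dye term called 1, 2, 1 and 0 members there, and 1.91%, 1.68%, 1.59% and 0.746% of all probes. Between doses of TCDD, 4 of 13 probes were called, all lower at 1 nM (3.61% of all probes were called, 2.26% as lower): both Emp1 probes, Ccn2 and Vim. The step of the Emp1 probe A_43_P11583 was -0.65 ± 0.14 (adjusted p = 0.0333), and its call was lost without either animal. Between doses of TCDF (0.0899% of all probes, 0.0714% as lower) and of PeCDF (0.0873%, and 0.0608%) the Emp1 probe A_44_P807058 was the 1 called.

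The ratios can be read against the level that each animal had with DMSO alone. Over the 14 arrays of each animal, the normalized DMSO level of Ccn2 ran from 10.66 to 11.08 (median 10.80) in animal A and from 11.86 to 12.02 (median 11.98) in animal B. The animals did not overlap, and their means differed by -1.14 on the log2 scale, A being 2.21-fold below B. Only 29 of 37824 probes were at least as far lower in A than in B, and probes as far higher in A were not counted. Vim (-0.40), Tagln (-0.45) and the Lox probe A_44_P434724 (-0.34) were also wholly lower in A, as were 2.41% of all probes. The Emp1 probe A_44_P807058 was wholly higher in A, at 12.15 to 12.47 in A and 11.65 to 12.10 in B (0.50, 1.42-fold), as were 2.06% of all probes. The other 8 probes overlapped. The arrays of an animal share its cells, so these are values of 2 animals with no test.

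**Figure D4:**
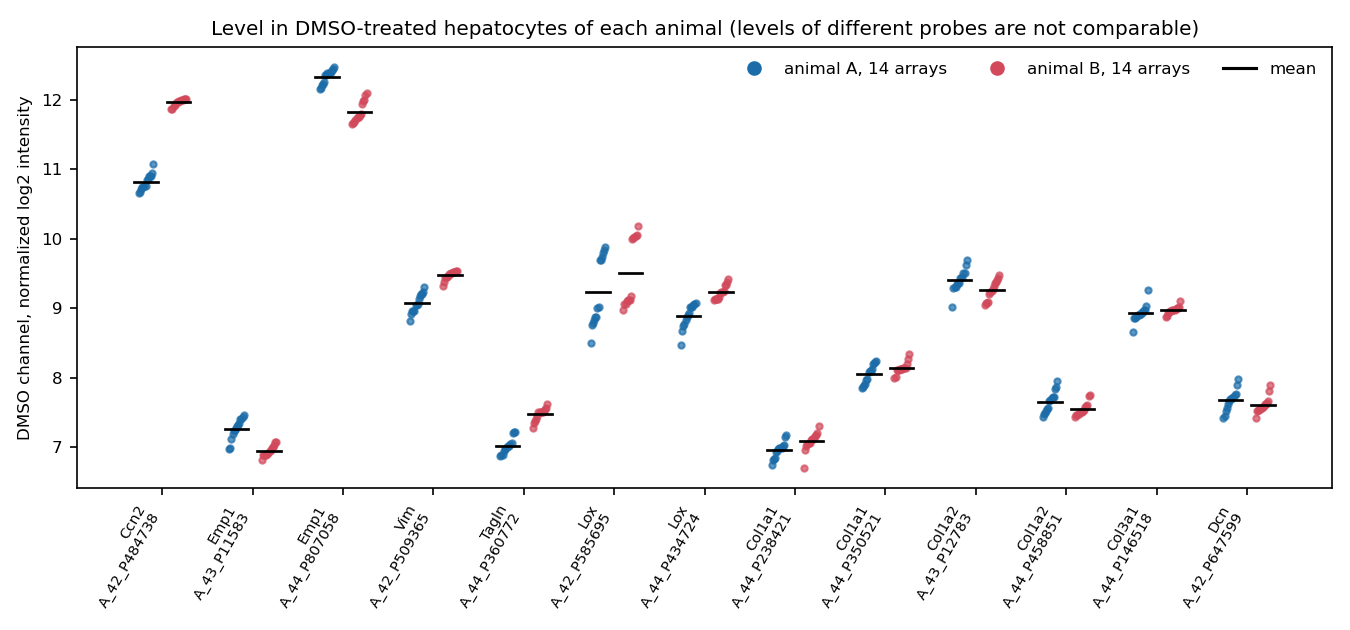
Normalized log2 level in the DMSO channel (y axis) of each probe (x axis), with 14 arrays of animal A and 14 of animal B as points and the means as bars. For Ccn2 all points of B (11.86 to 12.02) lie above those of A (10.66 to 11.08), and the Lox probe A_42_P585695 shows separate clusters within each animal.

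The wider matrix programme was described by counts over lists of genes, each by its brightest probe. With TCDD 1 nM, 3 of 41 other matrix genes tested were lower and 0 higher, a share near the 6.05% called lower among all probes. These were Col5a2 (-0.25 ± 0.04) and Col14a1 (-0.39 ± 0.06), both collagens, and Vtn (vitronectin, -0.25 ± 0.07), an adhesive protein of blood and matrix. With PeCDF 2 nM Col14a1 was the 1 lower gene (-0.27 ± 0.06), and with TCDF 10 nM none was called. With TCDD 0.01 nM Col6a3 alone was lower (-0.32 ± 0.03), a gene named for being the single call, and it was 1.31-fold higher at 1 nM than at 0.01 nM (0.39 ± 0.04). The same step between TCDD doses called Col5a2 (-0.27 ± 0.06) and Vtn (-0.46 ± 0.10) lower at 1 nM. The median log2 ratios of the list were -0.01, -0.03 and -0.02 with TCDD 1 nM, TCDF 10 nM and PeCDF 2 nM.

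Among 21 genes of collagen processing and matrix turnover, Pcolce, an enhancer of procollagen cleavage, was lower with TCDD 1 nM (-0.20 ± 0.05). Mmp14, a membrane-bound matrix protease, was lower with PeCDF 2 nM (-0.77 ± 0.15, adjusted p = 0.0204). Mmp3, another matrix protease and again the single call, was lower with TCDD 0.01 nM (-0.29 ± 0.05). The median ratios were -0.03, -0.03 and -0.00 at the 3 upper doses in the order TCDD, TCDF and PeCDF. Of 33 genes related to TGF-beta, YAP and SRF, 3 were lower with TCDD 1 nM, again a share near the 6.05% of all probes. They were Tpm1 (tropomyosin, -0.27 ± 0.04), Ankrd1, a known YAP target (-0.38 ± 0.09), and Tgfbr1, the type I TGF-beta receptor (-0.43 ± 0.12), named because it was called. Smad4, the common partner of the receptor-driven Smads, was higher with PeCDF 2 nM (0.23 ± 0.04), and none was called with TCDF 10 nM. The medians were -0.01, 0.00 and 0.04.

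Of 12 intermediate filament and PMP22 family genes, Krt8, a keratin of simple epithelia, was lower with TCDD 1 nM (-0.76 ± 0.11, adjusted p = 0.00206). Its partner Krt18 was lower with PeCDF 2 nM (-0.30 ± 0.07), and Pmp22 was higher with TCDF 10 nM (0.47 ± 0.09). The medians were 0.03, -0.01 and -0.01.

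The cell types the cultures could hold were read from markers. All 12 hepatocyte markers were well above background in the DMSO channel of all 28 arrays. So were 12 of 17 stellate cell and fibroblast markers, 13 of 14 Kupffer cell and leukocyte markers, 7 of 9 endothelial markers and 10 of 12 cholangiocyte markers, though that flag was met by 76 to 100% of all probes per array. In such bulk cultures fewer cells of a type and less RNA per cell cannot be told apart. With TCDD 1 nM 2 of 17 stellate cell and fibroblast markers were lower, where 6.05% of all probes were called lower. They were S100a4 (-0.19 ± 0.04) and Rgs5 (-0.18 ± 0.04). The list median was -0.01, and the summed level was 0.760 to 1.05 times DMSO over the 4 arrays. That ratio was 0.765 to 0.866 with TCDF 10 nM and 0.842 to 0.890 with PeCDF 2 nM. At the lower doses it was 0.819 to 0.878 with TCDD 0.01 nM, 0.764 to 1.01 with TCDF 0.1 nM and 0.801 to 0.896 with PeCDF 0.02 nM. In untreated cells it was 0.935 to 1.02, and no marker of this list was called outside TCDD 1 nM. Of 14 Kupffer cell and leukocyte markers, 6 were called with TCDD 1 nM, where 10.6% of all probes were called. The 5 lower ones were Lyz2 (-0.60 ± 0.08), C1qc (-0.50 ± 0.12), Vsig4 (-0.48 ± 0.09), Cybb (-0.34 ± 0.09) and Cd163 (-0.32 ± 0.09), and Cd14 was the 1 higher (0.64 ± 0.15). Their summed level was 0.903 to 0.927 times DMSO with TCDD 1 nM, 0.904 to 0.994 with TCDF 10 nM, 0.893 to 1.04 with PeCDF 2 nM and 0.840 to 0.946 in untreated cells. Of the hepatocyte markers Apob was higher (0.53 ± 0.09) and Cps1 lower (-0.84 ± 0.16) with TCDD 1 nM, and Tat was higher with PeCDF 2 nM (0.57 ± 0.12). Of the cholangiocyte markers Anxa13 was lower with TCDD 1 nM (-1.35 ± 0.08), TCDF 10 nM (-0.94 ± 0.08) and PeCDF 2 nM (-0.77 ± 0.08), and Prom1 with TCDD 1 nM (-0.49 ± 0.12). The median log2 ratio of the cholangiocyte list was -0.06 with TCDD 1 nM, -0.04 with TCDF 10 nM and 0.01 with PeCDF 2 nM. The summed level of these markers was below DMSO on all 4 arrays at each upper dose. This summed level was 0.727 to 0.837 times DMSO with TCDD 1 nM, 0.859 to 0.929 with TCDF 10 nM and 0.875 to 0.969 with PeCDF 2 nM. It was 0.968 to 1.01 with TCDD 0.01 nM, 0.889 to 1.07 with TCDF 0.1 nM, 0.951 to 1.09 with PeCDF 0.02 nM and 0.951 to 1.00 in untreated cells. Anxa13 and Prom1 were part of that sum, and a sum without them was not computed. The same measure of the hepatocyte markers varied widely between arrays, from 0.613 to 1.53 with TCDD 1 nM and from 0.674 to 1.53 in untreated cells. Endothelial markers gave no call. The part of other cell types in the ratios of Ccn2, Emp1, Vim, Tagln and Lox was not tested.

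The genes most like each member over the 14 animal-level ratios were found by Pearson correlation, a description over ratios that share DMSO RNA. Those nearest to the Emp1 probe A_44_P807058 were Slc37a4 (r = 0.987), the transporter of glucose 6-phosphate, Gys2 (r = 0.986), liver glycogen synthase, and Pc (r = 0.983), pyruvate carboxylase. Among the 3 nearest to Ccn2 were Cldn1 (r = 0.932), a tight junction protein, and the pseudogene Dbi-ps3 (r = 0.922). Among the 3 nearest to Vim were Pabpc4l (r = 0.967) and Khk (r = 0.964), ketohexokinase. Nearest to the Lox probe A_42_P585695 were Masp1 (r = 0.940), a protease of the lectin pathway of complement, Foxa3 (r = 0.931), a hepatocyte transcription factor, and Tnfaip8l2 (r = 0.886). Their fitted log2 ratios with TCDD 1 nM were -0.16, -0.51 and -0.14, in the same order. This is the Lox probe whose DMSO level differed between sessions, and the other Lox probe was not correlated.

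The values of dim spots depended on how background was treated. Under 4 treatments the TCDD 1 nM ratio of Ccn2 lay between -1.61 and -1.25 and that of the Emp1 probe A_44_P807058 between -1.62 and -1.41. For the Emp1 probe A_43_P11583 the range was -1.18 to -0.18, for Tagln -0.66 to -0.13 and for Vim -0.84 to -0.45. The sign was the same under each treatment for these 5 probes.

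**Figure D5:**
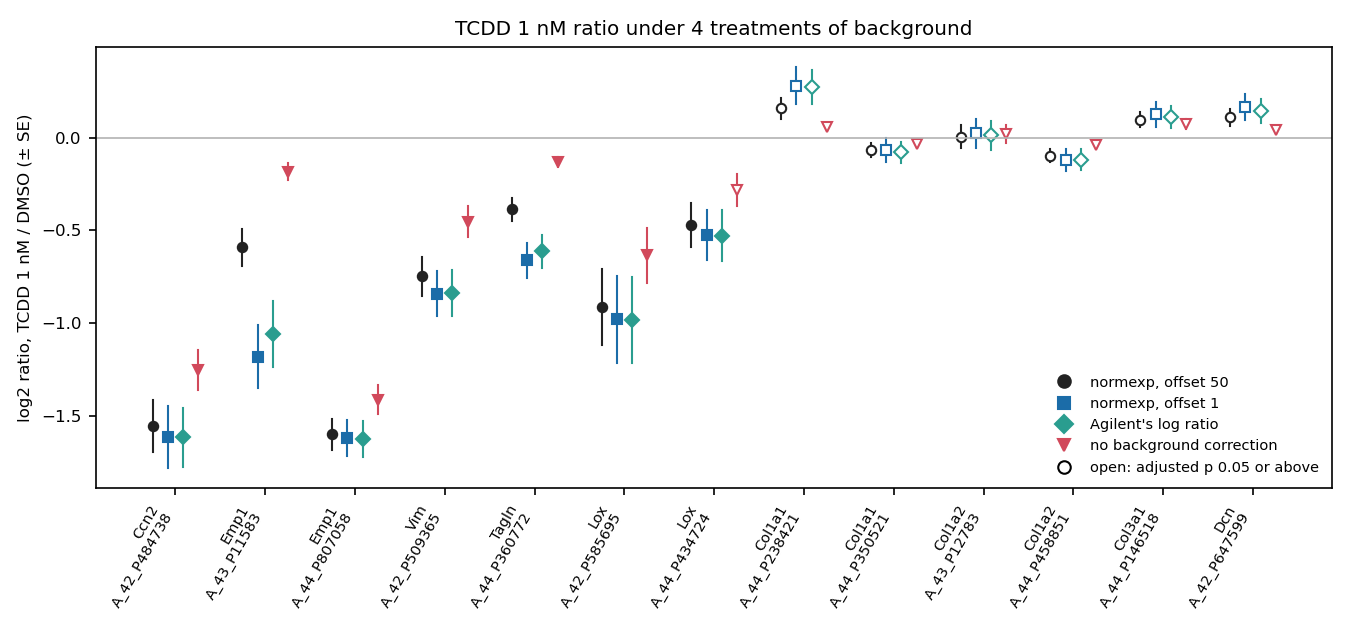
Log2 ratio of TCDD 1 nM to DMSO (y axis, ± standard error) of each probe (x axis) under 4 treatments of background: normexp with an offset of 50 or 1, Agilent's own log ratio and none. Filled symbols have an adjusted p under 0.05; the Emp1 probe A_43_P11583 runs from -1.18 to -0.18.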

How the data were processed

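Per the file headers, the authors' scanner files held mean spot signals and local backgrounds as intensity values and a log10 ratio of red over green, from Agilent Feature Extraction (version A.7.5.1 per the file headers, 9.1 per the submitters' processing notes). The deposited table of the series held that log10 ratio turned to test over DMSO RNA (largest difference 4.995e-06). Intensities were corrected here with normexp (offset 50) and normalized by loess within arrays in limma 3.58.1 (R 4.3.3), with 2256 control spots at weight 0 and 1067 marked spots (0.0921%) dropped. Ratios were turned to test over DMSO RNA and both dye orientations of an animal averaged, so 14 log2 ratios entered a fit of 7 group means with empirical Bayes. A value needed both orientations (0.172% missing). Levels of each channel were taken after Aquantile scaling. Probes well above background on 4 arrays of a group or on 14 of 28 DMSO channels were kept (37824 of 41012). Calls used Benjamini-Hochberg adjusted p under 0.05 over all probes. Replicates pair by animal, per the labels; the animals' differences correlated between groups at r = -0.424 to 0.565.

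Symbols came from RefSeq names (18529 probes). Lists were other matrix genes, collagen processing and matrix turnover, TGF-beta, YAP and SRF related genes, intermediate filaments and PMP22 family, and markers of 5 cell types; from each, at most 4 genes ranked by their p at the upper doses were named, and further called genes where stated or counted. Members and lists were chosen with earlier results of these data known. The fit was tested on simulated data. Alternatives are given in the closing section. Array number, 4 a group from 2 animals, limits the precision. Of the genes most like a member, 2 are not reported here.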

Additional observations from a re-analysis of the deposited data

How the results depend on the processing

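Each of 130 probe values (13 probes, 10 comparisons) was recomputed under 14 alternatives, or 13 for the 40 values of the 4 probes that are not the brightest of their gene. All 21 called values kept their sign under each, and 0 were reversed; 2 kept their call under each, Ccn2 and the Emp1 probe A_44_P807058 with TCDD 1 nM. Of the 109 uncalled values 41 changed sign somewhere. Counts of called probes that changed by over 1.5 times were as follows, with the share of all probes called under the same setting in brackets where given. With Agilent's log ratio, the deposited series values or an offset of 1, PeCDF 2 nM had 2 calls (1.97%, 1.97% and 1.44%) and the TCDF and PeCDF dose steps 0. With median centring in place of loess the counts were 3 for TCDD 1 nM and 0 for TCDF 10 nM, PeCDF 2 nM and the 3 dose steps. With no background correction TCDF 10 nM had 5 (3.08%) and the TCDD step 2 (2.92%). With the stricter filter on dim probes TCDF 10 nM had 4 (3.68%). With groups of the same session alone PeCDF 2 nM had 2 (2.85%). With the animal as a replicate block TCDF 10 nM had 4 (2.57%), the TCDD step 6 (4.19%), TCDD 1 nM 7 (11.4%) and PeCDF 2 nM 6 (5.19%). That setting gained 4 calls, of Vim and Lox, and lost 0. In the array-level fit with a dye term 4 arrays stand for 2 animals with a shared correlation of 0.402. More probes of the whole array were called in it too. It gave 7 for TCDF 10 nM (8.09%), 7 for the TCDD step (10.5%) and 3 and 2 for the PeCDF and TCDF steps (1.55% and 1.24%). It also gave 1 each for TCDD 0.01 nM (1.91%) and PeCDF 0.02 nM (1.59%) and 2 for TCDF 0.1 nM (1.68%). Leaving out 1 animal, with the lone sample taken to vary like the other groups, gave 3 (without B) to 8 (without A) calls for TCDD 1 nM, 1 to 1 for PeCDF 2 nM, 2 to 2 for the TCDD step and TCDF 10 nM, and 0 to 0 for the furan steps. The causes were not tested. Emp1 A_43_P11583, Tagln and Col1a1 A_44_P238421 were probes of low signal over background. With an offset of 1 the TCDD 1 nM ratios of this Emp1 probe and of Tagln lay further below DMSO. The ratios of this Emp1 probe with TCDF 10 nM and PeCDF 2 nM at that offset are given above. Whether the offset limited the ratios of these probes was not tested.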
